A study of Mus musculus with 14 samples.

Results

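Macrophages of the colonic and cecal lamina propria from 4 IL10RAKO mice (mice 1, 2, 7 and 8) were compared with those from 4 WT mice (mice 4, 5, 10 and 13), by genotype as labelled. These are 8 of the 14 libraries of the series. The statistical fit also held libraries of 4 DKO mice, which carried *Cdcs1* and lacked *Il10ra* and *Ccr2*. They entered the expression filter, the scaling and the shared estimate of spread, but not the comparison. All mice were 5 weeks old, on a C57BL/6 background, and carried *Cdcs1*, a locus that raises susceptibility to colitis. The labels give *Cdcs1* alone for the WT mice, whereas WT mice elsewhere in the study were heterozygous for *Il10ra* and *Ccr2*. The IL10RAKO mice carried *Cdcs1* and lacked both copies of *Il10ra* in every cell type of the body, and mice of this genotype develop colitis on their own, so the missing receptor and the surrounding inflammation cannot be told apart here. Live CD45+ cells had been sorted for CD64, CD11b and MHCII and against Ly6G, CD103 and Ly6C, and each library came from a single mouse. WT mouse 11, the remaining WT mouse, was used only to see whether results held.

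Interleukin-10 binds a receptor made of the ligand-binding chain IL10RA and the shared chain IL10RB, which signals through the kinases JAK1 and TYK2 to the transcription factor STAT3. In gut macrophages this pathway restrains the response to bacterial products, and people and mice that lack the receptor develop severe colitis early in life. Macrophages of the healthy colon are long-lived or monocyte-derived cells that take up bacteria and dying cells without releasing much inflammatory cytokine, and a subset next to vessels and nerves carries scavenger receptors such as LYVE1 and FOLR2.

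*Il10ra* (chromosome 9, 45253837 to 45269149 in GRCm38, the mm10 build) was examined first. Reads scaled to a common library size with TMM factors (CPM), always listed in the order of mouse numbers given here, were 379.6, 217, 251 and 290.1 CPM in WT mice 4, 5, 10 and 13 and 7.03, 6.54, 11.2 and 4.89 CPM in IL10RAKO mice 1, 2, 7 and 8. The groups did not overlap, and the gene was lower in IL10RAKO macrophages (log2 fold change −5.26 ± 0.34, adjusted p = 4.49e-07, from the quasi-likelihood test of edgeR as for all adjusted p-values below, ± standard error). *Il10rb*, the second chain, did not pass (log2 fold change −0.065 ± 0.15, adjusted p = 0.816). Between 13085287 and 21024878 reads were counted in the WT mice and between 15473135 and 20347283 in the IL10RAKO mice, so that 3 reads, taken as the smallest amount the depth can show, were worth 0.143 to 0.229 CPM before TMM scaling. That floor covers counting error only. The genes of the positive gate were present in all libraries, with *Ptprc* (CD45) at 922 ± 39.0 CPM in WT and 1118 ± 115 CPM in IL10RAKO macrophages, *Fcgr1* (CD64) at 102 ± 28.4 CPM in WT and 180.4 ± 51.5 CPM in IL10RAKO macrophages, a difference that no longer passed without any 1 of 6 mice, *Itgam* (CD11b) at 519 ± 77.5 CPM in WT and 431 ± 45.0 CPM in IL10RAKO macrophages and *H2-Ab1* (a chain of MHCII) at 15868 ± 2017 CPM in WT and 24213 ± 4206 CPM in IL10RAKO macrophages (mean ± SD, n = 4 mice each). Libraries of IL10RAKO mice were alike, with median Pearson correlations of 0.950 to 0.961 to the others of their group over log2 CPM, while those of WT mice were at 0.877 to 0.910, lowest for WT mouse 4, which stood apart on the second principal component. Reads of *Xist* exceeded those of Y-linked genes in 3 WT and 2 IL10RAKO libraries.

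Of 13136 genes tested, 1143 rose and 933 fell in IL10RAKO macrophages at an adjusted p-value under 0.05, which is 8.7% and 7.1% of all genes and 15.8% in either direction. The 4 values of one genotype lay wholly above the 4 of the other for 1241 genes that were higher (9.45%) and 1153 that were lower (8.78%) in IL10RAKO macrophages, 18.2% of the tested genes together. Genes that fell did so by more than genes that rose, their medians being −1.88 and 1.07 on the log2 scale. A log2 fold change beyond 2 was reached by 240 genes that rose and 440 that fell. The median of all tested genes was −0.070. This split depended on scaling, because 55.1% of the genes that passed were higher with TMM factors, 43.4% with upper-quartile factors (median of all genes −0.18) and 23.8% with library totals alone (median −0.38). Changes are therefore read against these medians. In the test on simulated counts of this depth and spread, only 200 genes were changed at a time. Of these, 0 changed 1.5-fold were recovered, 45 changed 2-fold and 149 changed 4-fold. The adjustment over all genes is stricter when so few change than in the data, where 15.8% passed. These rates therefore do not give the share of small changes found here. The smallest change that passed was 0.43 on the log2 scale. The number that fell was 592 without IL10RAKO mouse 1 and 603 without IL10RAKO mouse 8.

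**Figure D1:**
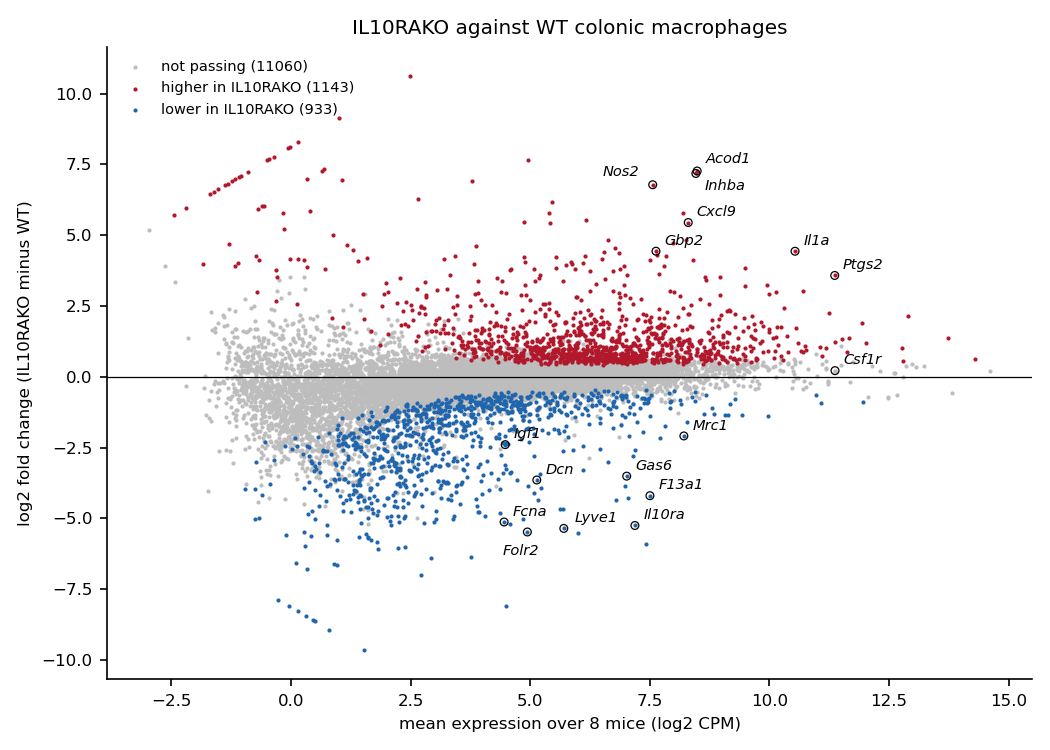
Log2 fold change (IL10RAKO minus WT, vertical axis) of the 13136 tested genes against their mean expression (log2 CPM over the 8 mice, horizontal axis). Each point is a gene, red for the 1143 that rose, blue for the 933 that fell and grey for the rest, and the named points include *Acod1* at 7.27 and *Folr2* at −5.48.

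Markers of other cells moved with the genotype and are given here because they stand beside many of the results. The summed level of 6 fibroblast markers was 294 to 577 CPM in the WT mice and 14.99 to 53.7 CPM in the IL10RAKO mice. All 6 fell, among them *Dcn* (−3.65), a collagen-binding proteoglycan, and the growth factor receptor *Pdgfra* (−4.24, adjusted p over 0.05 once WT mouse 11 was added). The IL10RAKO mean of *Pdgfra* was 0.26 CPM, near the floor. Smooth muscle markers summed to 28.4 to 162 CPM in WT and 5.36 to 12.8 CPM in IL10RAKO mice. In the other direction, the sums were 34.5 to 64.6 and 128 to 235 CPM for NK and cytotoxic markers, 76.1 to 127 and 144 to 270.1 CPM for neutrophil markers, 10.6 to 33.4 and 70.3 to 96.7 CPM for mast cell markers and 380.2 to 1491 and 1627 to 2040.2 CPM for dendritic cell markers, in WT and IL10RAKO mice respectively. The mast cell and dendritic cell differences each rested on a single gene. Without *Ccr7* (506 ± 344 CPM in WT and 1529.6 ± 208 CPM in IL10RAKO macrophages), a receptor of migrating dendritic cells, the dendritic cell sums overlapped at 158.6 to 569.9 CPM in WT and 187 to 497 CPM in IL10RAKO mice, and within that list *Siglech* fell (−3.72, not passing with WT mouse 11 added) and *Cd209a* did not pass (−0.94). Without *Kit* (22.05 ± 10.4 CPM in WT and 83.8 ± 11.5 CPM in IL10RAKO macrophages), the receptor of stem cell factor, the mast cell sums were 0 to 4.57 and 0 to 2.23 CPM, and *Cpa3*, a mast cell protease, did not pass (−0.80). The groups still did not overlap without the leading NK gene *Klrk1* (19.6 to 26.97 and 27.3 to 56.5 CPM) or the leading neutrophil gene *Csf3r* (2.697 to 11.3 and 12.1 to 55.9 CPM). These sums without a leading gene were added after the values were seen. Epithelial, endothelial, T cell, B cell and eosinophil sums overlapped between the groups, as did the sum of 8 macrophage markers (9334 to 15664 and 12324 to 19489 CPM). The defining markers *Ly6g* (neutrophils), *Epx* (eosinophils), *Tpsb2* and *Fcer1a* (mast cells and basophils) and *Ncr1* (NK cells) were below the expression filter. In these bulk samples, fewer cells of a type and less RNA per cell cannot be told apart. With the mean level of the fibroblast markers as a covariate, which is nearly a marker of genotype here, 13 genes passed and 2000 of the 2076 genes kept their direction, with a median of 0.82 of the original log2 fold change. Among the 13 were *Il10ra*, *F13a1*, *Cxcl9*, *Gbp2*, *Gbp2b*, *Gbp7*, *Mir6381*, *Serpina3g*, *Tgtp1*, *Ifi47*, *Cfb* and *Spon1*, and how much these other cells contribute to the remaining calls was not tested.

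**Figure D2:**
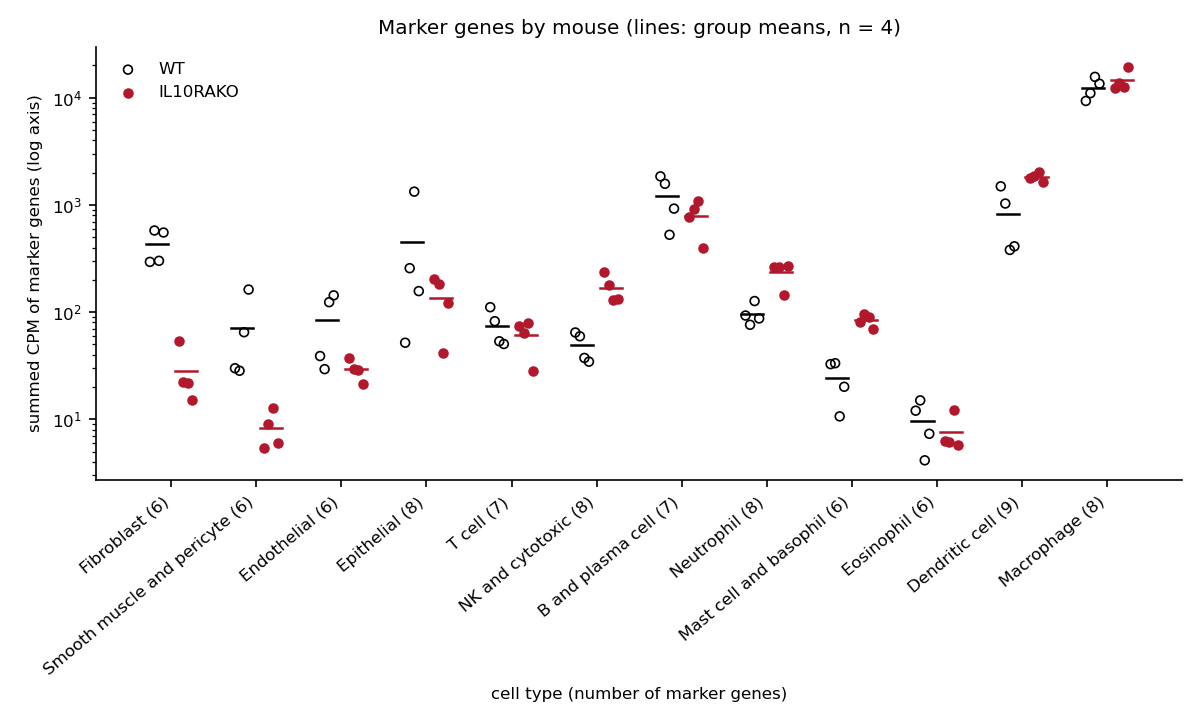
Summed CPM (logarithmic axis) of marker genes of 12 cell types in each of the 4 WT and 4 IL10RAKO mice, 1 point a mouse and a line at each group's mean. The fibroblast sums of the IL10RAKO mice, at most 53.7 CPM, lie below all WT sums, while NK, neutrophil, mast cell and dendritic cell sums lie above the WT sums, the mast cell sum through *Kit* and the dendritic cell sum through *Ccr7*.

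The genes that rose with the smallest adjusted p-values and without overlap were led by targets of interferon gamma. *Cxcl9* (chromosome 5, 92321347 to 92328079), a chemokine that attracts T cells, was at 18.5, 17.1, 11.0 and 9.92 CPM in the WT mice and 600.3, 548, 367 and 955 CPM in the IL10RAKO mice (log2 fold change 5.45 ± 0.32, adjusted p = 3.04e-07). *Gbp2* (chromosome 3, 142620602 to 142638008), a guanylate-binding GTPase that attacks the vacuoles of intracellular microbes, was at 20.2, 22.3, 13.7 and 13.7 CPM in the WT mice and 499, 386, 216 and 413 CPM in the IL10RAKO mice (log2 fold change 4.44 ± 0.27, adjusted p = 3.04e-07). In both of these genes the lowest IL10RAKO mouse was mouse 7, and it still lay far above the highest WT mouse. *Serpinb9* (chromosome 13, 33003250 to 33017957), an inhibitor of granzyme B, was at 13.1, 18.3, 14.6 and 15.2 CPM in the WT mice and 94.3, 116, 113 and 113 CPM in the IL10RAKO mice (log2 fold change 2.83 ± 0.17, adjusted p = 3.04e-07). Others of the first 12 were *Mir6381*, *Cxcl10*, *Serpina3g*, *Il1a*, *Isg15*, *Cd274*, *Ccl5* and *Gbp2b*, with log2 fold changes between 2.88 and 4.84. *Mir6381* lies inside *Gbp2* on the other strand and, since the counting is not stated to use strand, its reads cannot be told apart from those of *Gbp2*. No mature sequence is therefore given for it.

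To place these genes in sequence, the 250 bases before the start annotated in RefSeq were searched on both strands for 4 patterns. They were the consensus forms of GAS (the gamma-activated site, bound by STAT dimers), ISRE (the interferon-stimulated response element, bound by IRF proteins), EICE (the composite element of ETS and IRF factors) and the kappaB site of NF-kappaB. ISRE and EICE can overlap. Promoters of the genes with the smallest adjusted p-values that held a match are printed 5′ to 3′ on the gene's strand, from RefSeq on GRCm38.p6, with the match in capitals. The 3 higher genes are *Serpinb9* (plus strand, chr13:33004291-33004540, ISRE), *Gbp2* (plus, chr3:142620413-142620662, ISRE) and *Cxcl10* (minus, chr5:92348890-92349139, ISRE followed by kappaB matches, some overlapping).
Serpinb9: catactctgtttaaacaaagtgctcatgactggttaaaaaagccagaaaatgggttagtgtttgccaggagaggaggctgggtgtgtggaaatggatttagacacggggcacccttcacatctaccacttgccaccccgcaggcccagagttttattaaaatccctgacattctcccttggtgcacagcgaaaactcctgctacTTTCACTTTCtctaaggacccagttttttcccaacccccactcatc
Gbp2: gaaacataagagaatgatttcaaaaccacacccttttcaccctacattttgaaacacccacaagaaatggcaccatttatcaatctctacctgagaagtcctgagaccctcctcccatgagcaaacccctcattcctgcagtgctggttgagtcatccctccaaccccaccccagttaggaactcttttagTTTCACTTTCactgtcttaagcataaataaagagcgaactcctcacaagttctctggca
Cxcl10: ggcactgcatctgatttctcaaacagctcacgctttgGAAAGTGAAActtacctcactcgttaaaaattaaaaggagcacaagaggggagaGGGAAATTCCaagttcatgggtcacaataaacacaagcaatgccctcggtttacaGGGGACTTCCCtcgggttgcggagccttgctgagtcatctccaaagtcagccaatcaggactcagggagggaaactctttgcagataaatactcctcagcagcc
The ISRE match in *Serpinb9* and *Gbp2* is the same run of 10 letters, beginning 46 bases before the RefSeq start in *Serpinb9* and 59 bases before it in *Gbp2*. Gene positions given above are from GENCODE, in which both genes begin earlier. Both matches therefore lie inside those positions, and are upstream only of the RefSeq start. For comparison, 2 genes that fell are shown, *Pmp22* (plus strand, chr11:63132553-63132802, 1 of 4 listed starts), a myelin and membrane protein, and *Ednrb* (minus, chr14:103843702-103843951), an endothelin receptor, which each held a kappaB match only.
Pmp22: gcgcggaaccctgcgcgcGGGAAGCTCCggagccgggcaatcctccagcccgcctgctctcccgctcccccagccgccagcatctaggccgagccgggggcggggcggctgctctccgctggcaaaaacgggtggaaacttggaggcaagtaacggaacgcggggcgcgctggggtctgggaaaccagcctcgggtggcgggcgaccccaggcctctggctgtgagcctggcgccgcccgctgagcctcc
Ednrb: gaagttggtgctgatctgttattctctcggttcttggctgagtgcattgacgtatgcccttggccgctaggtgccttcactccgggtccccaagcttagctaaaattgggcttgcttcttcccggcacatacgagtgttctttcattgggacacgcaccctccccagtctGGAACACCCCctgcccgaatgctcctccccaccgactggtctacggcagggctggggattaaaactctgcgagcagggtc
None of the 4 patterns was found in this window of *Cxcl9*, *Il1a* or *Cd274*, which says only that these letters are not there.

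Of the 13039 listed promoters of 10283 tested genes, 2.88% held ISRE. The share was 7.16% in the 1173 promoters of genes that rose, 10.9% in the 220 promoters of genes that rose by a log2 fold change over 2 and 2.38% in the 923 promoters of genes that fell. GAS was found in 6.01% of promoters of tested genes, 7.84% of genes that rose, 15% of genes that rose beyond 2 and 5.31% of genes that fell. The kappaB site was found in 8.90%, 11.6%, 14.6% and 8.56%, and EICE in 2.03%, 3.33%, 6.36% and 1.84%, in the same order. Over all listed promoters the shares were 2.98% for ISRE, 7.02% for GAS, 7.25% for kappaB and 2.30% for EICE. Among the lists below, 12 of 19 promoters of interferon gamma genes (63.2%) and 15 of 36 of antiviral genes (41.7%) held ISRE, 12 of 31 of NF-kappaB genes (38.7%) held the kappaB site, and 0 of 27 of resident macrophage genes held GAS. Base composition differed too, since GC content averaged 59.4% in tested genes, 57.9% in those that rose, 53.1% in those that rose beyond 2 and 58.9% in those that fell.

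**Figure D3:**
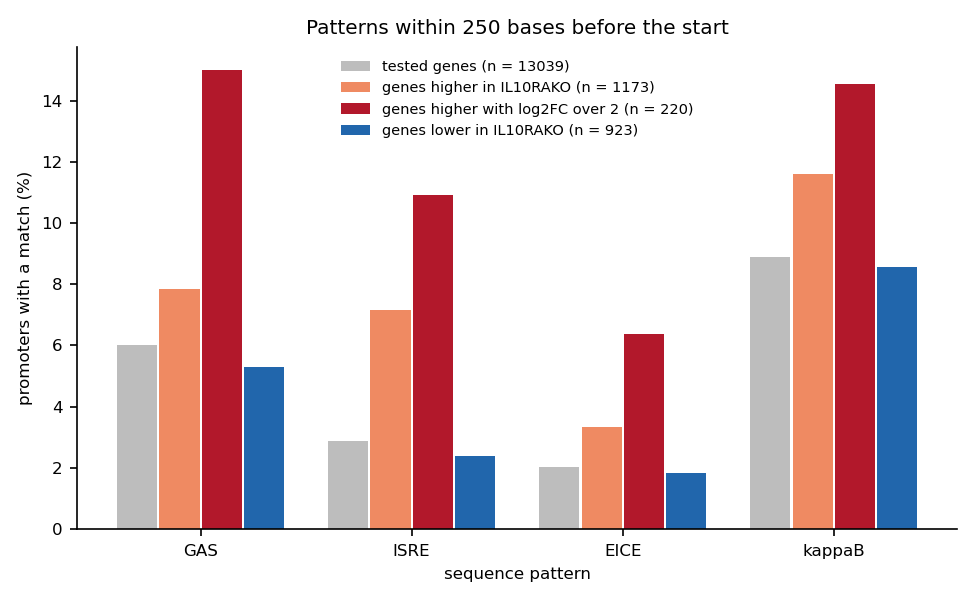
Percentage of promoters (250 bases before the start) holding each of 4 sequence patterns, for all tested genes, genes that rose, genes that rose with a log2 fold change over 2, and genes that fell. Bars start at 0, and the ISRE bars read 2.88%, 7.16%, 10.9% and 2.38%.

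Most interferon gamma targets rose. Of 30 genes tested, 25 rose and 1 fell, and the median log2 fold change was 2.98, while with library totals alone 24 and 1 did so. All 9 guanylate-binding proteins that passed rose, among them *Gbp5* (4.54) and *Gbp7* (2.31). The smallest rise, in *Gbp9* (0.65), no longer passed without IL10RAKO mouse 1, 2 or 7 or without WT mouse 4, 10 or 13 (log2 fold changes 0.48 to 0.69), and *Gbp10* was at 2.36 without passing. The immunity-related GTPases *Tgtp1* (5.55), *Iigp1* (3.91), *Igtp* (2.80) and *Irgm1* (2.56), which act with them on pathogen vacuoles, also rose. *Nos2*, the inducible nitric oxide synthase, was at 0.0955, 2.40, 7.497 and 3.40 CPM in the WT mice and 191, 779, 118 and 409 CPM in the IL10RAKO mice (log2 fold change 6.78 ± 0.86, adjusted p = 9.89e-05). The WT mice were all near the floor of detection or a few CPM above it, and the IL10RAKO mice varied widely among themselves, with mouse 2 the highest. The receptor genes *Ifngr1* (0.38) and *Ifngr2* (0.36) did not pass. The single member that fell was *Serping1* (−2.33), the inhibitor of complement C1.

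Genes of the antiviral response to type I interferon rose in smaller steps. Of 40 tested, 23 rose and 0 fell, with a median of 0.83, and with library totals alone 14 and 0 did. The largest changes were in *Ifi205* (4.26), a DNA sensor family member, *Isg15* (2.88), a ubiquitin-like modifier, and *Zbp1* (2.35), a sensor of Z-form nucleic acid. Of 15 transcription factor genes in the list of interferon regulatory factors and the Batf family, 6 rose and 1 fell. With library totals alone, 5 and 3 did. *Batf2* (4.00), *Irf1* (1.75) and *Irf7* (1.51) were among those that rose, and the member that fell was at −0.66.

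The 2 antigen presentation pathways differed in their counts. Of 20 class I genes, 16 rose and 0 fell, with a median of 1.28. The peptide transporter *Tap1* (2.19), its partner *Tap2* (1.53), the 3 immunoproteasome subunits *Psmb8* (1.54), *Psmb9* (1.87) and *Psmb10* (1.55), the light chain *B2m* (1.19) and the class I transactivator *Nlrc5* (1.82, not passing with WT mouse 11 added) were among them. Of 18 class II genes, 3 rose and 0 fell (median 0.38, and 2 and 1 with library totals alone). The class II transactivator *Ciita* (0.12), the invariant chain *Cd74* (0.19) and the chains *H2-Aa* (0.45) and *H2-Eb1* (0.39) did not pass. The chain *H2-Ab1* (0.61) rose, but not without IL10RAKO mouse 1 or 8 or WT mouse 5, 10 or 13 (0.53 to 0.63, adjusted p in edgeR 0.0548 to 0.0853). The thiol reductase *Ifi30* (1.00) and the protease *Ctss* (0.86) rose.

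**Figure D4:**
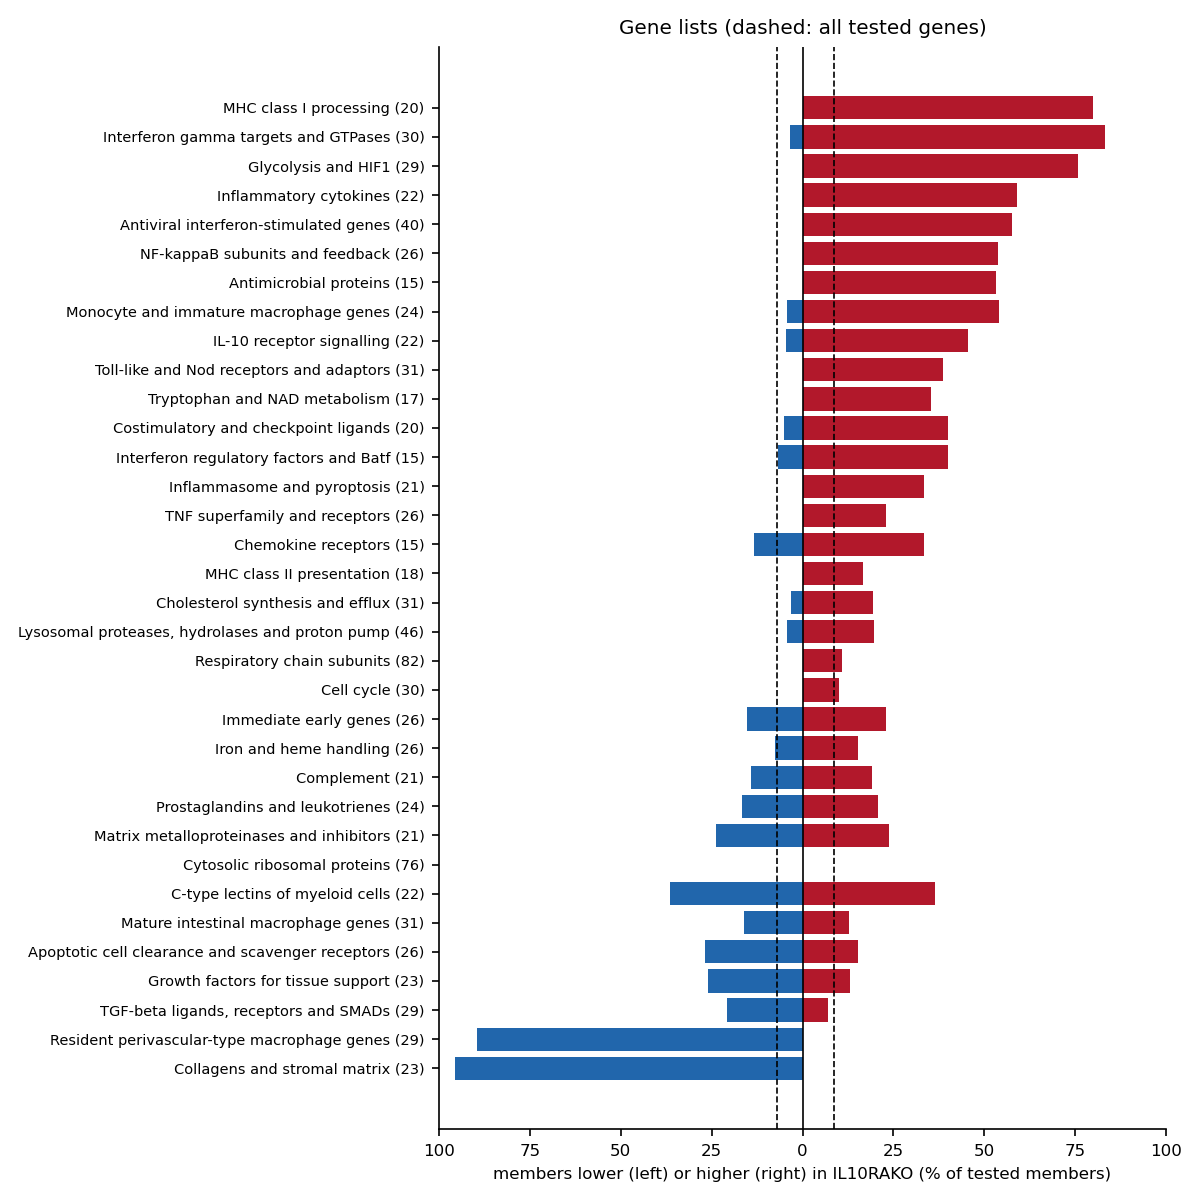
Percentage of the tested members of the 34 gene lists with at least 15 tested members that rose (red, to the right) or fell (blue, to the left) in IL10RAKO macrophages, with dashed lines at the 8.7% and 7.1% of all tested genes and the number of members tested beside each name. Interferon gamma, class I and glycolysis lists reach furthest to the right, and collagens and resident macrophage genes furthest to the left.

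Cytokine genes rose widely. Of 22 tested, 13 rose and 0 fell (median 2.23). *Il1a* (chromosome 2, 129299610 to 129309972) was at 109, 107, 131 and 178 CPM in the WT mice and 1717, 3813, 2489.8 and 3329.7 CPM in the IL10RAKO mice (log2 fold change 4.43 ± 0.30, adjusted p = 7.87e-07). *Il6* was at 9.02, 9.26, 9.32 and 11.4 CPM in the WT mice and 77.9, 324, 93.9 and 193 CPM in the IL10RAKO mice (log2 fold change 4.15 ± 0.39, adjusted p = 7.94e-06). In both, IL10RAKO mouse 2 was the highest and all 4 IL10RAKO mice exceeded all WT mice. Of the IL-12 family, *Il23a* (4.83), *Il12a* (3.59), *Il12b* (3.45) and *Il27* (2.93) rose, and *Ebi3*, which pairs with *Il27*, had a log2 fold change of 0.45 without passing. The neutrophil growth factor *Csf3* (4.26) rose. *Il10* itself did not pass (log2 fold change 0.22 ± 0.50, adjusted p = 0.814, 95% confidence interval −0.86 to 1.29), an interval that leaves room for changes in either direction.

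Inhibitors of the IL-1 and IL-18 systems rose with the cytokines. *Il1rn*, the IL-1 receptor antagonist, was at 466, 361, 227 and 417 CPM in the WT mice and 1961, 3709, 2584 and 3627 CPM in the IL10RAKO mice (log2 fold change 3.01 ± 0.27, adjusted p = 4.18e-06). *Il1r2*, a decoy receptor (2.32), and *Il18bp*, which binds IL-18 (4.02), rose as well, while *Il18* had a log2 fold change of −0.19 (adjusted p = 0.699). Of 21 inflammasome and pyroptosis genes, 7 rose and 0 fell, and the pore former *Gsdmd* (1.14) was among them, but *Nlrp3* (0.95) and *Pycard* (0.31) did not pass.

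Chemokines went in both directions. Of 13 CXC chemokines, 5 rose, including the CXCR3 ligands *Cxcl9*, *Cxcl10* (3.41) and *Cxcl11* (4.63) and the neutrophil attractant *Cxcl3* (3.73), and 2 fell, the stromal chemokine *Cxcl12* (−3.40) and platelet factor 4, *Pf4* (−2.81). Of 14 CC chemokines, the T cell attractant *Ccl5* (4.84) and *Ccl22* (2.78) rose and 6 fell. *Ccl24*, an eosinophil attractant made by alternatively activated macrophages, was at 29.1, 23.04, 20.5 and 48.7 CPM in the WT mice and 1.11, 1.68, 1.57 and 2.51 CPM in the IL10RAKO mice (log2 fold change −4.14 ± 0.34, adjusted p = 2.34e-06). The monocyte attractants *Ccl7* (−2.59) and *Ccl2* (−2.08) fell, and *Ccl3* (0.46) and *Ccl4* (0.52) did not pass. Of 15 chemokine receptor genes, 5 rose and 2 fell (median −0.085), but 5 and 5 did with library totals alone. *Ccr7* (1.60), the atypical receptor *Ccrl2* (2.24) and *Ccr1* (1.15) were among those that rose. The 2 that fell were also atypical receptors, with log2 fold changes of −5.66 and −1.87. The former was at a mean of 5.97 CPM in WT and 0.12 CPM, near the floor, in IL10RAKO mice. With WT mouse 11 added, 5 rose and 0 fell. *Ccr2*, the receptor for monocyte entry, did not pass (log2 fold change −0.32 ± 0.20, adjusted p = 0.328), nor did *Cx3cr1*, a marker of gut macrophages (log2 fold change −0.74 ± 0.31, adjusted p = 0.136).

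In the receptor pathway itself, 10 of 22 listed signalling components and targets rose and 1 fell, the latter being *Il10ra* (median 0.45). With library totals alone, 6 and 1 did (median 0.14). The targets of IL-10 did not move as one. *Zfp36*, whose product destabilizes cytokine mRNA (0.39), *Socs3*, the feedback inhibitor induced through STAT3 (0.45), and *Stat3* (0.45) did not pass, while *Nfil3*, a repressor of *Il12b* transcription, rose (1.73), as did *Socs1* (2.30), an inhibitor of JAK kinases. *Jak1* (−0.061) and *Tyk2* (0.044) did not pass.

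Sensors and NF-kappaB genes rose in part. Of 31 Toll-like and Nod receptor genes, 12 rose, among them *Tlr2* (1.79), *Tlr6* (1.90) and the lipopolysaccharide coreceptor *Cd14* (1.91), and 0 fell. *Tlr4*, the signalling receptor that CD14 serves, did not pass (0.035). Of 26 NF-kappaB subunits and feedback genes, 14 rose and 0 fell, but 6 and 1 did with library totals alone. The inhibitors *Nfkbie* (1.58), *Nfkbia* (1.37) and *Tnip1* (1.30) rose and the subunit *Rela* did not pass (0.49). Of 20 costimulatory and checkpoint ligands, 8 rose and 1 fell (8 and 2 with library totals alone). *Cd274*, which encodes PD-L1, was at 157, 170.3, 85.7 and 153 CPM in the WT mice and 1196, 1533, 1174 and 1293 CPM in the IL10RAKO mice (log2 fold change 3.20 ± 0.23, adjusted p = 1.26e-06), and *Pdcd1lg2*, which encodes PD-L2 (2.89), *Cd40* (2.04) and *Cd80* (1.63) rose with it. In the TNF superfamily list, *Tnfrsf9*, the receptor 4-1BB, rose by 3.79.

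Metabolic genes formed some of the most one-sided lists. Of 29 glycolysis and HIF1 genes, 22 rose and 0 fell, with a median of 1.73, and library totals alone gave 21 and 0. The lactate exporter *Slc16a3* (3.63), the glucose transporter *Slc2a1* (2.88), the oxygen sensor *Egln3* (3.98) and the angiogenic factor *Vegfa* (3.51) had the largest changes, and *Hk1* (0.63) and *Pfkfb3* (0.30) did not pass. *Acod1*, which makes itaconate from a citric acid cycle intermediate, was at 2.58, 5.45, 8.49 and 1.73 CPM in the WT mice and 289, 1036, 653 and 880.1 CPM in the IL10RAKO mice (log2 fold change 7.27 ± 0.58, adjusted p = 2.29e-06). The arginine transporter *Slc7a2* (5.47) and the arginase *Arg2* (3.96) rose too, giving 7 of 13 genes of arginine, nitric oxide and itaconate metabolism. Of 82 respiratory chain subunits 9 rose and 0 fell (median 0.34), a count of 1 and 1 with library totals alone. The share that rose, 11.0%, was near the 8.7% of all tested genes. *Nampt* (2.11), the rate-limiting enzyme of NAD salvage, and *Kynu* (1.39) of tryptophan breakdown rose among 17 genes of that list, 6 of which passed.

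Of 24 prostaglandin and leukotriene genes, 5 rose and 4 fell (3 and 5 with library totals alone). *Ptgs2*, the inducible cyclooxygenase, was at 395, 505, 307 and 422 CPM in the WT mice and 3076, 6847, 4076 and 5474 CPM in the IL10RAKO mice (log2 fold change 3.58 ± 0.31, adjusted p = 3.29e-06), and the prostaglandin E synthase *Ptges* rose by 2.97. The phospholipases *Pla2g7* (1.80), which degrades platelet-activating factor, and *Pla2g4a* (0.63), which frees arachidonic acid, rose as well, the latter no longer passing without IL10RAKO mouse 1, 2 or 8 or WT mouse 4, 5 or 13 (0.55 to 0.67). Those that fell were *Alox5*, the first enzyme of leukotriene synthesis (−3.65), *Ltc4s* (−2.15), *Hpgds* (−1.19) and the prostaglandin-degrading *Hpgd* (−2.12), whereas *Alox5ap*, whose product serves ALOX5, rose (0.71, and 0.63 without IL10RAKO mouse 2, which did not pass). Of 12 NADPH oxidase genes 6 rose, including both membrane subunits, *Cyba* (0.98) and *Cybb* (0.90), and the cytosolic *Ncf1* (1.06), while *Rac1* (0.22) and *Rac2* (0.06) did not pass. Among 26 iron and heme genes, 4 rose and 2 fell (3 and 5 with library totals alone). The haemoglobin scavenger receptor *Cd163* (−4.66) and the iron exporter *Slc40a1* (−2.10) fell, and haptoglobin, *Hp* (4.38), and the ferritin heavy chain *Fth1* (1.36) rose. *Hmox1*, the heme oxygenase, was at a log2 fold change of −0.27 (adjusted p = 0.662).

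Of 24 genes of monocytes and of recently arrived macrophages, 13 rose and 1 fell (median 0.98, and 11 and 3 with library totals alone). *Ly6c2*, 1 of the genes for the Ly6C antigen, was at 7.64, 6.45, 5.80 and 6.13 CPM in the WT mice and 95.1, 177, 38.4 and 125 CPM in the IL10RAKO mice (log2 fold change 4.06 ± 0.36, adjusted p = 4.51e-06), although cells with Ly6C protein had been gated out. The other gene for this antigen, *Ly6c1*, was the member that fell, at 11.1, 8.56, 42.6 and 41.2 CPM in the WT mice and 4.38, 8.59, 4.15 and 5.68 CPM in the IL10RAKO mice (log2 fold change −2.18 ± 0.49, adjusted p = 0.00755). The groups overlapped, and WT mice 10 and 13 were far above the rest. Endothelial marker sums were 38.9, 29.4, 123.8 and 143.4 CPM in the WT mice and 37.2, 29.4, 28.8 and 21.5 CPM in the IL10RAKO mice. The part of endothelial cells in the *Ly6c1* result was not tested. The genes for Ly6C are close copies, so how shared reads were assigned is uncertain. *Ly6i* (5.80), a relative of *Ly6c2* to which shared reads could have been assigned, and *Trem1* (4.13), an amplifier of Toll-like receptor signalling, rose as well. *S100a8* and *S100a9*, the calprotectin subunits, were at 0, 0, 0 and 0.732 CPM and at 0 in each WT mouse, and at 2.37, 42.8, 0.809 and 3.76 CPM and 1.53, 40.8, 0.506 and 2.38 CPM in the IL10RAKO mice, so no fold is given for them. Both were high in IL10RAKO mouse 2 alone, and neither passed in limma-voom. *Lyz2*, lysozyme of all macrophages, did not pass (0.36). Of 15 antimicrobial protein genes 8 rose and 0 fell. Beside calprotectin, the largest rises were in *Reg3b* (7.67) and *Reg3g* (6.92, not passing with WT mouse 11 added), bactericidal lectins made by the gut epithelium, neither of which passed in limma-voom. *Reg3b* was at 0, 0.645, 0.497 and 0 CPM in the WT mice and 109, 109, 1.62 and 26.8 CPM in the IL10RAKO mice, high in IL10RAKO mice 1 and 2 and low in mouse 7. The WT mean of *Reg3g* was 0.21 CPM, so the sizes of both rises rest on WT values near the floor. The protease inhibitor *Slpi* (4.42) and serum amyloid *Saa3* (3.26) also rose. Beside them, neutrophil marker sums were higher, as given above, and epithelial marker sums were 51.8 to 1330.4 CPM in WT and 41.7 to 202 CPM in IL10RAKO mice, and the part of either cell type in this result was not tested.

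The 12 genes that fell with the smallest adjusted p-values and without overlap were *Il10ra*, *F13a1*, *Pmp22*, *Ccl24*, *Ednrb*, *Fcna*, *Folr2*, *Lifr* (−1.93), the receptor for leukemia inhibitory factor, *Dcn*, *Cd34* (−3.61), *Cavin1* (−4.07), a coat protein of caveolae, and *Pdlim1* (−2.61). Several of them are genes of resident macrophages near vessels. Of 29 tested, 26 fell and 0 rose, with a median of −2.47, and 27 fell with library totals alone. *Timd4*, *Ccl8* and *Clec10a* did not pass, and *Vsig4* was below the filter. *F13a1* (chromosome 13, 36867178 to 37050244), the coagulation factor XIII subunit, was at 368, 362, 322 and 325 CPM in the WT mice and 17.5, 15.5, 16.9 and 24.8 CPM in the IL10RAKO mice (log2 fold change −4.20 ± 0.22, adjusted p = 1.79e-07). *Fcna* (chromosome 2, 25624666 to 25628030), a ficolin that recognizes sugars on microbes, was at 42.1, 39.6, 44.6 and 44.3 CPM in the WT mice and 1.04, 0.187, 1.37 and 2.25 CPM in the IL10RAKO mice (log2 fold change −5.13 ± 0.44, adjusted p = 3.38e-06). *Lyve1* (chromosome 7, 110850607 to 110863239), the hyaluronan receptor, was at 93.2, 129, 92.9 and 92.0 CPM in the WT mice and 2.09, 0.0623, 3.84 and 3.83 CPM in the IL10RAKO mice (log2 fold change −5.36 ± 0.78, adjusted p = 3.04e-04). No IL10RAKO mouse reached the lowest WT mouse in any of them, and IL10RAKO mouse 2 had the lowest *Fcna* and *Lyve1*, both at the floor of 3 reads or under it. *Folr2* (−5.48), the folate receptor beta, *Cbr2* (−5.54), a carbonyl reductase, and *Ednrb* (−4.66) fell as far. The mannose receptor *Mrc1* fell by less, with 481 ± 83.8 CPM in WT and 113 ± 81.3 CPM in IL10RAKO macrophages (log2 fold change −2.09 ± 0.44, adjusted p = 0.00448). The summed fibroblast markers were lower beside all of them, and their part in this result was not tested. With these markers as a covariate the list's median was −1.77, and 1 of its genes, *F13a1*, passed, beside 13 of all 13136 genes. The covariate nearly marks genotype, so these values do not separate fibroblast content from changes in macrophages.

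**Figure D5:**
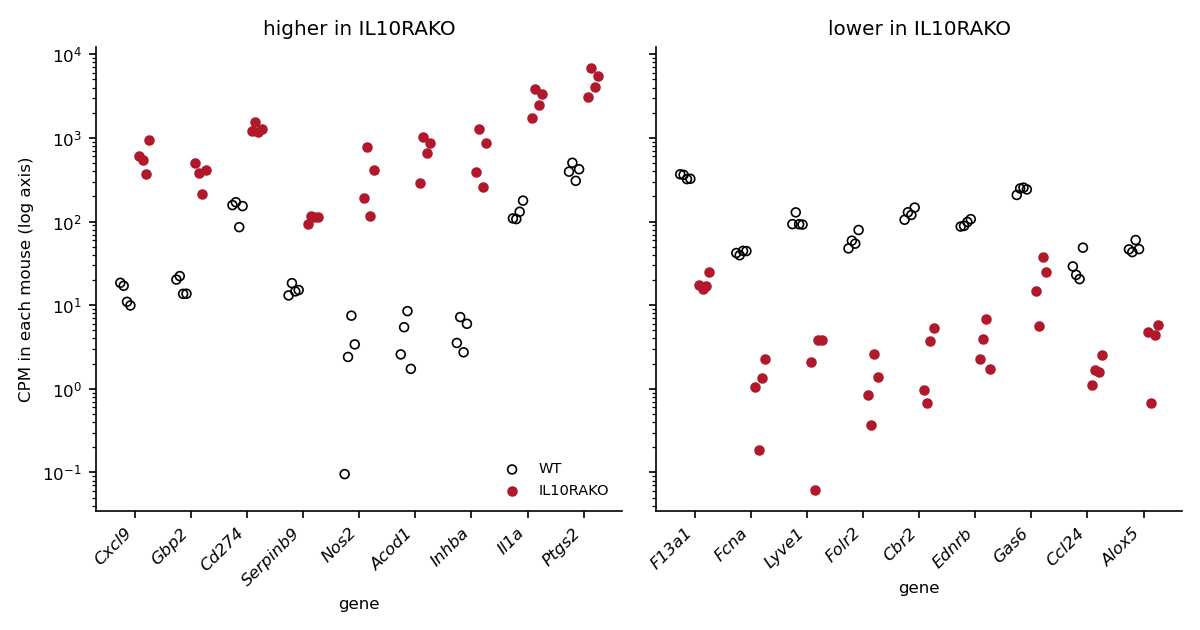
CPM (logarithmic axis) of 9 genes that rose and 9 that fell in each mouse, with open circles for the 4 WT mice and filled circles for the 4 IL10RAKO mice. No pair of groups overlaps, and *Nos2* in the WT mice, from 0.0955 to 7.50 CPM, has the widest spread within a group.

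Bridging genes for the uptake of dying cells fell in part. Of 26 clearance and scavenger genes, 4 rose and 7 fell (median −0.018). *Gas6*, the ligand that links dying cells to the receptors MERTK and AXL, was at 208, 248, 254 and 242 CPM in the WT mice and 14.6, 5.67, 38.1 and 24.9 CPM in the IL10RAKO mice (log2 fold change −3.51 ± 0.42, adjusted p = 6.63e-05), without overlap. *Mfge8* (−1.89) and *Pros1* (−1.34), which do similar work, fell too, while the receptor *Axl* did not pass (0.03). The oxidized lipoprotein receptor *Olr1* (3.50) rose. C-type lectins went in both directions, with 8 of 22 higher and 8 lower, but 7 and 10 with library totals alone. Those that signal for inflammation, *Clec4e* (3.53), *Clec4d* (2.59) and the fungal receptor *Clec7a* (2.06), rose, and *Clec4b1* (−3.07) and the mannose receptor fell.

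General macrophage markers seldom passed, with 1 of 8 higher and 0 lower. The 8 macrophage markers had a median log2 fold change of 0.14, which was −0.18 with library totals alone, and *Csf1r*, the receptor that macrophages need to survive, did not pass (0.22). Among 31 genes of mature intestinal macrophages, 4 rose (12.9%) and 5 fell (16.1%), shares above the 8.7% and 7.1% of all tested genes (median −0.23). With library totals alone, 2 and 10 did (median −0.56). The purinergic receptor family member *Gpr34* (−1.86) and the tetraspanin *Cd81* (−1.34) fell, the transcription factors *Cebpb* (1.24) and *Runx3* (0.93) rose, and the complement genes *C1qb* (−0.16) and *C1qc* (−0.23) did not pass. In the complement list, *Cfb* (3.84) and *C3* (2.52) of the alternative pathway rose. Of 76 ribosomal protein genes 0 passed in edgeR, DESeq2 or limma-voom (median 0.053), with 4, 5 and 4 at an unadjusted p under 0.05. Of 30 cell cycle genes 3 rose, a share near that of all genes, namely the inhibitors *Cdkn1a* (1.75) and *Cdkn1b* (1.195) and the proliferation marker *Mki67* (1.06). *Cdkn1b* did not pass without IL10RAKO mouse 2 (0.96) or 8 (1.08), and *Mki67* did not without IL10RAKO mouse 2, 7 or 8 or WT mouse 4, 10 or 13 (0.87 to 1.17).

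Of 23 growth factors 3 rose and 6 fell (3 and 9 with library totals alone), and of 21 matrix proteases and inhibitors 5 rose and 5 fell (5 and 5). In the separate list of TGF-beta genes, *Inhba*, the activin A subunit, was at 3.53, 7.21, 2.73 and 5.99 CPM in the WT mice and 387, 1278, 257 and 882 CPM in the IL10RAKO mice (log2 fold change 7.18 ± 0.56, adjusted p = 2.09e-06), with no overlap and mice 2 and 8 well above mice 1 and 7. Among the growth factors, the epidermal growth factor receptor ligands *Nrg1* (3.61) and *Areg* (1.75, not passing with WT mouse 11 added) rose and *Tgfa* fell (−5.61), and *Igf1* fell (−2.40). The latent TGF-beta binding protein *Ltbp1* (−4.35) and *Tgfb2* (−4.38), both of the TGF-beta list, fell. Means in WT and IL10RAKO mice were 2.62 and 0.048 CPM for *Tgfa*, 5.48 and 0.26 CPM for *Ltbp1* and 3.18 and 0.15 CPM for *Tgfb2*. These IL10RAKO means were near or under the floor of 3 reads, so the sizes of these falls are uncertain. Of 23 collagens and stromal matrix genes 22 fell and 0 rose (median −3.65), together with the fibroblast sums. Under the fibroblast covariate in edgeR 0 of them passed (2 at an unadjusted p under 0.05). Only 13 of all 13136 genes passed there, and the covariate nearly marks genotype. This count therefore cannot show the part of fibroblasts, which was not tested. The matrix protease *Mmp14* (1.48) and the urokinase receptor *Plaur* (1.87) rose, and the inhibitors *Timp2* (−1.94) and *Timp3* (−3.87) fell.

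Sequence next to a targeted gene can be carried along with the targeted allele, so tested genes on chromosome 9 within 2 Mb of *Il10ra* were counted separately. Of 53, 3 rose and 5 fell (15.1%, median log2 fold change 0.021), against 15.8% of all tested genes. The share was 9.43% without IL10RAKO mouse 1, without IL10RAKO mouse 8 or without WT mouse 13, and 5.66% with WT mouse 11 added.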

How the data were processed

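Libraries were prepared by the authors with SmartSeq v4 from sorted macrophages of single mice and sequenced on a NovaSeq. Reads were aligned by the authors with STAR 2.5.1b to mm10, and the authors deposited whole-number counts of reads per gene for 24982 genes, without normalization. The annotation, strand setting and handling of multiply aligned reads are not given in the sources used here. The authors also deposited edgeR pseudocounts, a score adjusted to a common library size, which served as an alternative. Genes were matched to GENCODE vM21 symbols (24490 directly, 45 through a synonym, 447 unmatched).

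Counts were analysed with edgeR 4.0.16 in R 4.3.3. WT, IL10RAKO and DKO libraries (DKO lacks *Il10ra* and *Ccr2*, n = 4 mice each) were fitted together after filterByExpr and TMM scaling, with glmQLFit and glmQLFTest and Benjamini-Hochberg adjustment over 13136 genes, at a threshold of 0.05. P-values measure the spread between mice. No libraries of a genotype were duplicates (chi-square per degree of freedom at least 41.5). The code was tested on simulated data with 200 changed genes. limma 3.58.1, DESeq2 1.42.0, other scalings, filters and samples were alternatives. Promoters came from RefSeq and were searched for textbook consensus patterns, given here by name. Figures were drawn with matplotlib 3.10.9.

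The comparison, the gene lists (42 pathway lists and 14 marker lists) and the tests were chosen with earlier results of these data known. Named genes are *Il10ra*, *Ccr2* and genes of the sort, the 12 genes higher and the 12 lower that ranked first by adjusted p-value among those without overlap, up to 4 passing members of each list in each direction with the largest changes and up to 2 non-passing members with the highest expression, and members completing a family or complex. Other genes (*Slpi*, *Saa3*, *Gsdmd*, *Pros1*, *Il18*, *Tlr4*, *Spon1*, *Ifi47*, *Pla2g4a*) were named after their values were seen. A few genes that met these rules are not reported here.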

Additional observations from a re-analysis of the deposited data

Results flagged for a closer look

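In each group of 4 mice, a mouse was noted when it lay far from the other 3, by Dixon's test of its gap to the nearest of them. Of 444 groups examined, 38 were noted (8.56%), where chance gives about 5%, and genes of a mouse are not independent of each other. None of these was weighed further.

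Among summed markers, epithelial genes were at 1330 CPM in WT mouse 10 against 51.8 to 256.9 CPM in the other WT mice. Neutrophil genes were at 144.2 CPM in IL10RAKO mouse 7 (others 263.8 to 270.1) and eosinophil genes at 12.19 CPM there (others 5.812 to 6.333).

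IL10RAKO mouse 7 also had 95.62 CPM of *Ccl2*, 1156 CPM of *Cdkn1a*, 567.2 CPM of *Cyba* and 112.6 CPM of *Hk1*, the first above and the others below its group. IL10RAKO mouse 2 stood out in calprotectin, with 42.85 CPM of *S100a8* (others 0.8091 to 3.765) and 40.79 CPM of *S100a9* (others 0.5057 to 2.378), and had 882 CPM of *Nfkbie*, 1.37 CPM of *Cxcl12* and 9.28 CPM of *Pdlim1*. IL10RAKO mouse 8 had the most class II transcripts, with 11780 CPM of *H2-Aa* and 13970 CPM of *H2-Eb1*, and 9687 CPM of *Fos*. IL10RAKO mouse 1 had 94.3 CPM of *Serpinb9*, below its group, and 69.31 CPM of *Timd4*, 219.5 CPM of *Cd209a* and 1.113 CPM of *Cpa3*, above it.

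WT mouse 4 had 8.737 CPM of *Arg2* and 9.406 CPM of *Pdcd1lg2*, above the other WT mice, and 330.1 CPM of *Ccl3*, 92.2 CPM of *Gsdmd*, 88.85 CPM of *Pfkfb3* and 8.785 CPM of *Cdkn1b*, below them. WT mouse 13 was highest in *Cd163* (158.9 CPM), *Lifr* (99.82), *Pdgfra* (9.855), *Il6* (11.39), *Ier3* (550.0), *Tgtp1* (5.993), *Gbp10* (3.396) and *S100a8* (0.7325). WT mouse 5 had 128.8 CPM of *Lyve1* and 2.11 CPM of *Cpa3*, each the highest of the WT mice. WT mouse 10 had 144.5 CPM of *Nfkbie* and 252.6 CPM of *Plaur*, each the lowest of the WT mice, and 97.33 CPM of *Alox5ap*, the highest.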

How the results depend on the processing

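Those of the 2076 genes that were tested kept their direction in every alternative except the covariate for fibroblast markers, where 2000 did, and the fit of 13 libraries, where 2073 did. With a minimum log2 fold change of 1, 532 genes passed (267 higher, 265 lower), with the fibroblast covariate 13 did (11 and 2), and with library totals 651 were higher and 2084 lower. With WT mouse 11 added (13 libraries), 1642 passed (966 higher, 676 lower), and without the DKO mice (8 libraries) 1563 did (851 and 712). In the fit of 13 libraries, 22 of 29 resident macrophage genes and 18 of 23 collagens and stromal matrix genes fell. Leaving out 1 mouse at a time gave 1485 to 2554 genes, 891 to 1294 higher and 592 to 1260 lower. Over all lists, 40.3% of tested entries passed, against 19.6% with the minimum fold, 1.15% with the fibroblast covariate and 34.6% to 41.8% without 1 mouse. Near *Il10ra* the share was 3.77% with the minimum fold, 8.33% with 8 libraries, 5.66% with 13, 0 with the fibroblast covariate and 9.43% to 16.98% without 1 mouse. The fibroblast covariate reversed the medians of fibroblast (0.38), endothelial (0.24) and enteric glia markers (0.68) and the log2 fold changes of *Areg* (−0.35) and *Cdkn1b* (−0.14), which follows for the fibroblast markers from their use as the covariate. Medians nearer 0 changed sign there too, for T cell markers (0.44 to −0.21), Fc receptors (0.38 to −0.15), clearance and scavenger genes (−0.018 to 0.52), Ms4a genes (−0.12 to 0.29), chemokine receptors (−0.085 to 0.050) and ribosomal proteins (0.053 to −0.053). The cause of the other changes was not tested. In a window of 150 bases, GAS was found in 5.12%, 3.47% and 3.48% of promoters of genes higher, genes lower and tested genes, kappaB in 7.25% of those higher, ISRE in 1.3% and 1.63% and EICE in 0.9751% and 1.09% of those lower and tested. Of 166 named genes that passed, 159 did so without each mouse in turn, the exceptions being *Fcgr1*, *Gbp9*, *H2-Ab1*, *Mki67*, *Pla2g4a*, *Alox5ap* and *Cdkn1b*. No paired analysis was possible because the groups hold different mice and the labels carry no number that ties a WT to an IL10RAKO mouse. Depth limits values near 3 reads, and its part in the recovery of small changes in the simulated counts was not separated from the spread between mice.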

Other observations

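Immediate early genes, which respond within minutes to many stimuli and to tissue handling, moved in both directions. Of 26 tested, 6 rose and 4 fell (median log2 fold change −0.024, and 5 and 6 with library totals alone). *Fosl1* (3.36), *Nr4a2* (2.00), *Egr2* (1.75) and *Ier3* (1.65) rose. *Jun*, an AP-1 subunit, was at 5727, 4707, 5500.0 and 4701 CPM in the WT mice and 2323, 2478, 3113 and 3208 CPM in the IL10RAKO mice (log2 fold change −0.89 ± 0.17, adjusted p = 0.00205). Its partner *Fos* (−0.022) and the related *Junb* (0.13) did not pass, so members of one transcription factor complex differed in whether they passed. *Egr1* (−0.92) and *Klf2* (−0.95) fell with *Jun*.

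*Retnla*, which encodes RELMalpha, a product of alternatively activated macrophages, was chosen after its values were seen. Among the genes that passed, it was 1 of the 15 with the largest loss in CPM. It was at 267, 343, 342 and 399 CPM in the WT mice and 0.765, 1.56, 6.22 and 14.1 CPM in the IL10RAKO mice (log2 fold change −5.89 ± 0.77, adjusted p = 1.31e-04). The groups did not overlap. *Fth1*, the ferritin heavy chain, had the largest gain in CPM of the genes that passed, from a mean of 7661 CPM in WT to 19654 CPM in IL10RAKO mice.

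The remaining lists had smaller or mixed counts. Of 46 lysosomal genes 9 rose and 2 fell, which became 3 and 7 with library totals alone, and of 31 cholesterol genes 6 rose and 1 fell (1 and 3). Of 26 TNF superfamily genes 6 rose and 0 fell (4 and 3), and of 29 TGF-beta genes 2 rose, *Inhba* among them, and 6 fell (1 and 11). Fc receptors (4 higher and 1 lower of 11) became 1 and 3 with library totals alone, and *Fcgr4* (1.42) rose in both. The Schlafen genes *Slfn1* (2.37) and *Slfn2* (1.63) rose among 7 tested, and of 12 Ms4a genes 2 rose, led by *Ms4a4c* (1.36), and 4 fell, *Ms4a7* (−1.61) among them.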
